A study of Homo sapiens with 12 samples.

Results

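The mature microRNA (miRNA) hsa-miR-7-5p and its partner strand hsa-miR-7-1-3p, called miR-7-5p and miR-7-1-3p below, were followed in Huh7 cells by SLAMseq, a sequencing method that marks newly made RNA. They were the 2 members studied of 2652 mature miRNAs counted, and were taken by name from the tables of all libraries. The members were chosen by their T>C conversion rates in these libraries, high after labelling and little lower with PlaB, with their read counts also in view, so their values are given as a description without a test.

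Huh7, a cell line from a human liver carcinoma, was grown as bulk cultures. All cells were treated for 4 h, and there were 3 conditions with 4 libraries each, 12 in all. *Control* cells received the vehicle DMSO without 4-thiouridine (4SU), *DMSO* cells received DMSO with 500 μM 4SU, and *PlaB* cells received pladienolide B (PlaB) with 500 μM 4SU. PlaB binds SF3B1, a subunit of the U2 snRNP of the spliceosome, and blocks splicing; the sample labels give its concentration as 500 μM and the study's methods as 1 μM. The replicate number of a library names 1 of 4 independent experiments, each with all 3 conditions. Libraries held between 1522210 and 3880241 reads assigned to miRNAs. *DMSO* replicates 1 and 2 each combine reads of 3 sequencing runs, among them a newly prepared and a re-amplified library, and stand apart from the other libraries in this respect. The 4 hepatocyte miRNAs examined, led by miR-122-5p, were above 100 CPM in every library and together reached 99467 to 152534 CPM. The 5 blood miRNAs examined summed to at most 6.90 CPM, and the 3 muscle miRNAs to at most 10.2 CPM, with miR-206 at 0 in all 12 libraries. Of the 3 neuronal miRNAs, miR-128-3p was at 4327 to 5354 CPM, while miR-9-5p was at 1.97 to 54.9 CPM and miR-124-3p did not exceed 4.97 CPM. miR-375-3p, a miRNA of the endocrine pancreas, was at 50.8 to 98.9 CPM.

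A miRNA is cut from a hairpin in a longer primary transcript, first in the nucleus by Microprocessor and then in the cytoplasm by Dicer, and one strand of the resulting duplex is usually retained in Argonaute to guide repression of mRNAs through its seed, bases 2 to 8. miR-7 is a deeply conserved miRNA, best known from neurons and the endocrine pancreas, that represses growth factor signalling mRNAs such as EGFR. In the brain it acts with miR-671 and the circular RNA CDR1as, which carries many miR-7 sites. In SLAMseq, 4SU built into RNA made during labelling is alkylated with iodoacetamide and is then read as C in place of T. The T>C conversion rate used below is the number of T>C conversions divided by the number of T positions covered by reads, in percent, so it is a share of T positions after a single labelling time and not a speed of synthesis.

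In the human genome the sequence of miR-7-5p is made from 3 hairpins, whereas the 3′ strands of those hairpins differ. The sequences are shown because they determine which reads can be assigned to one hairpin. They are the RefSeq entries on GRCh38.p14, written 5′ to 3′, with the seed in capitals.
miR-7-5p: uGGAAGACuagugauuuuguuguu
miR-7-1-3p: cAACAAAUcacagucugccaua
miR-7-2-3p: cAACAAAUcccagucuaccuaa
miR-3529-3p: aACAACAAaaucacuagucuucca
Both members were found in the reference. miR-7-5p is 24 bases long with 11 U, and no other miRNA of the 2363 in the reference shares its seed. miR-7-1-3p is 22 bases long with 4 U and differs from miR-7-2-3p at 4 positions outside the seed, which the pair share. miR-3529-3p, from the strand opposite MIR7-2, is the exact reverse complement of miR-7-5p.

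MIR7-1 lies at chr9:83969748-83969857 on the minus strand of GRCh38, within HNRNPK, which encodes an RNA-binding protein. In GENCODE version 44 the hairpin is in an intron of 27 of the 28 HNRNPK transcripts that span it and overlaps an exon of 1. MIR7-2 lies at chr15:88611825-88611934 on the plus strand with no host gene on that strand, and MIR7-3 lies at chr19:4770670-4770779 on the plus strand, in an intron of all 56 annotated transcripts of the lncRNA MIR7-3HG. The following windows of the MIR7-2 and MIR7-3 hairpins show how miR-7-5p continues at each locus, with the bases after the miRNA in capitals; MIR7-2 is at chr15:88611856-88611885 and MIR7-3 at chr19:4770700-4770729.
MIR7-2: uggaagacuagugauuuuguuguuGUCUUA
MIR7-3: uggaagacuagugauuuuguuguuCUGAUG
The windows start at the first base of miR-7-5p. Within them the mature sequence is the same at both loci, and the bases differ only after its last base. Bases before the miRNA were not compared. The deposited tables hold 1 miR-7-5p entry, whose listed length of 72 bases with 33 T positions equals 3 copies of the mature sequence.

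The first question was how much of each strand the cells held. miR-7-5p was among the most abundant miRNAs of Huh7, at rank 8 of 2652 by mean reads, and its level was close to that in *Control* in both labelled conditions. In *Control* it reached 23192, 23271, 24785 and 25830 CPM (reads scaled to the total of reads assigned to miRNAs) in replicates 1 to 4. In *DMSO* the values were 20035, 24629, 28073 and 26383 CPM. In *PlaB* the values were 25106, 27107, 27748 and 24407 CPM. The lowest and the highest values were both in *DMSO*, and the conditions overlapped. In the same comparison, 13.2% of 537 miRNAs tested had *DMSO* and *Control* libraries that did not overlap, and 4.10% had *PlaB* and *DMSO* libraries that did not overlap. The mean level was 24270 ± 1272 CPM in *Control*, 24780 ± 3462 CPM in *DMSO* and, with PlaB, 26092 ± 1590 CPM (SD, n = 4). In an edgeR fit across those 537 miRNAs, the log2 fold change of miR-7-5p was 0.05 (SE 0.13) for *DMSO* against *Control* and 0.06 (SE 0.13) for *PlaB* against *DMSO*. In these bulk libraries, fewer cells making a miRNA and less of it per cell cannot be told apart.

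miR-7-1-3p, annotated at MIR7-1 alone, was present at a level far below that of miR-7-5p. Its values were 139.7, 101.1, 148 and 149 CPM in *Control*, 125, 118, 107 and 102 CPM in *DMSO*, and 86.1, 100.5, 128 and 154 CPM in *PlaB*. Only *PlaB* replicate 1 was below 100 CPM, and the conditions overlapped. The log2 fold change was -0.23 (SE 0.19) for *DMSO* against *Control* and 0.05 (SE 0.19) for *PlaB* against *DMSO*. Between 158 and 292 reads of miR-7-5p were counted for each read of miR-7-1-3p. The mean of this ratio was 184 ± 30.9 for *Control*, 223 ± 48.0 for *DMSO* and 234 ± 59.6 for *PlaB* (SD, n = 4), and its ranges overlapped.

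**Figure D1:**
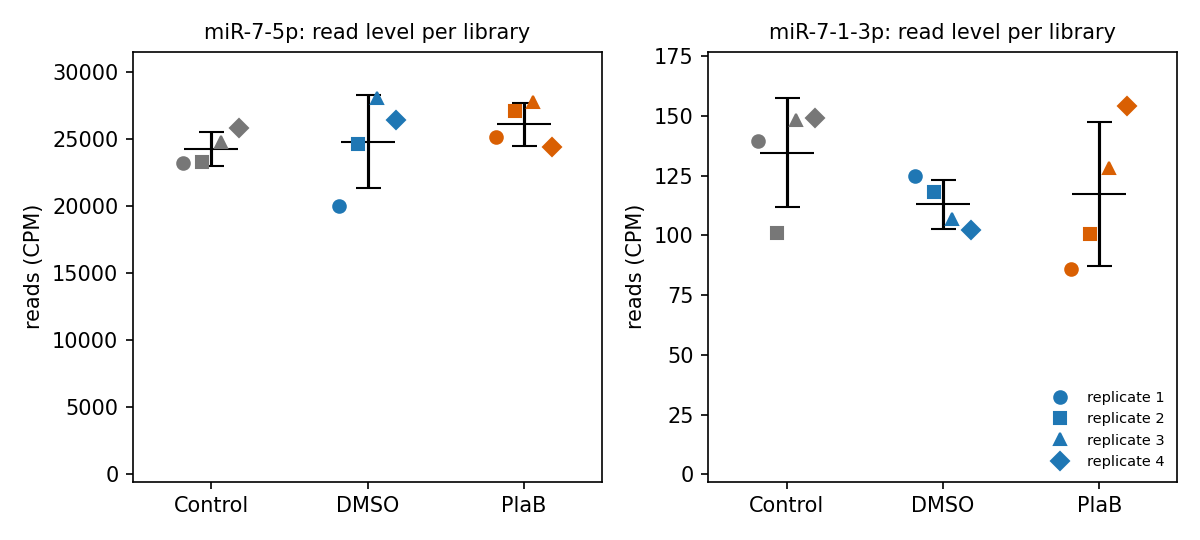
Read level in CPM (y axis) of miR-7-5p (left) and miR-7-1-3p (right) in each library by condition (x axis). Marker shape is the replicate number, and bars are the mean ± SD of 4 libraries. For both strands the points of the 3 conditions overlap, with *DMSO* replicate 1 lowest for miR-7-5p at 20035 CPM and *PlaB* replicate 1 lowest for miR-7-1-3p at 86.1 CPM.

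Of the other miRNAs at the MIR7-2 locus, 3 were not seen. miR-7-2-3p, the partner strand at MIR7-2, had 0 reads in all 12 libraries, and so had miR-3529-5p and miR-3529-3p from the opposite strand. A count of 0 allows up to 0.773 to 1.97 CPM in a single library (3 reads), so miR-7-2-3p was not detectable at this depth. miR-1179, from a hairpin upstream of MIR7-2 at chr15:88608107-88608197, had at most 5 reads in a library (2.53 CPM). Reads of miR-7-5p could not be divided among the hairpins, as between 94.7 and 98.7% of them were multi-mapping, that is, aligned equally well to more than one place. The 2 lowest multi-mapping shares were 94.7 and 94.9%, in *DMSO* replicates 1 and 2, and all other libraries were at 96.8% or above. For miR-7-1-3p, 3 reads of *DMSO* replicate 2 were multi-mapping and none in the other 11 libraries.

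The second question was how much of each strand carried the 4SU label. miR-7-5p showed a high T>C conversion rate in every library with 4SU and very few conversions without it. In *Control* the rate was 0.0149, 0.0133, 0.0197 and 0.0090% in replicates 1 to 4, from 61, 79, 95 and 59 conversions. In *DMSO* it was 0.541, 0.488, 0.770 and 0.587%, from 4477, 4176, 4623 and 3207 conversions. Every *DMSO* library was above every *Control* library, as was the case for 70.6% of the Initial miRNA Dataset, the miRNAs marked by the study as above 100 CPM in every library and listed in MirGeneDB. miR-7-5p is part of this dataset and miR-7-1-3p is not. The rates of the same experiment differed by 36.3-, 36.8-, 39.0- and 65.1-fold between *DMSO* and *Control*. The mean rate was 0.0142 ± 0.0044% in *Control* and 0.596 ± 0.122% in *DMSO* (SD, n = 4). The fitted log2 fold change was 5.40 (SE 0.22), and the median over the Initial miRNA Dataset was 3.16. Counting error was small beside this spread, with a 95% Wilson interval of 0.748 to 0.792% for the highest library, *DMSO* replicate 3.

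With PlaB the rate of miR-7-5p remained close to that in *DMSO*. It was 0.458, 0.545, 0.690 and 0.514% in replicates 1 to 4, from 1842, 3080, 3221 and 2532 conversions. The *PlaB* and *DMSO* libraries overlapped, whereas for 46.2% of the miRNAs of the Initial miRNA Dataset every *PlaB* library was below every *DMSO* library. All *PlaB* libraries were above all *Control* libraries, as for 38.5% of the dataset. The mean was 0.552 ± 0.0992% (SD, n = 4). Between *PlaB* and *DMSO* the fitted log2 fold change of the rate was -0.11 (SE 0.18), and the median over the dataset was -1.23. Of those miRNAs 48.3% were called lower in *PlaB* by edgeR with an adjusted p under 0.05. Within an experiment, the rate in *PlaB* minus that in *DMSO* was -0.0830, 0.0567, -0.0794 and -0.0737 percentage points, so it was lower with PlaB in 3 of 4 experiments and higher in experiment 2. Experiment 3 had the highest rate in all 3 conditions.

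**Figure D2:**
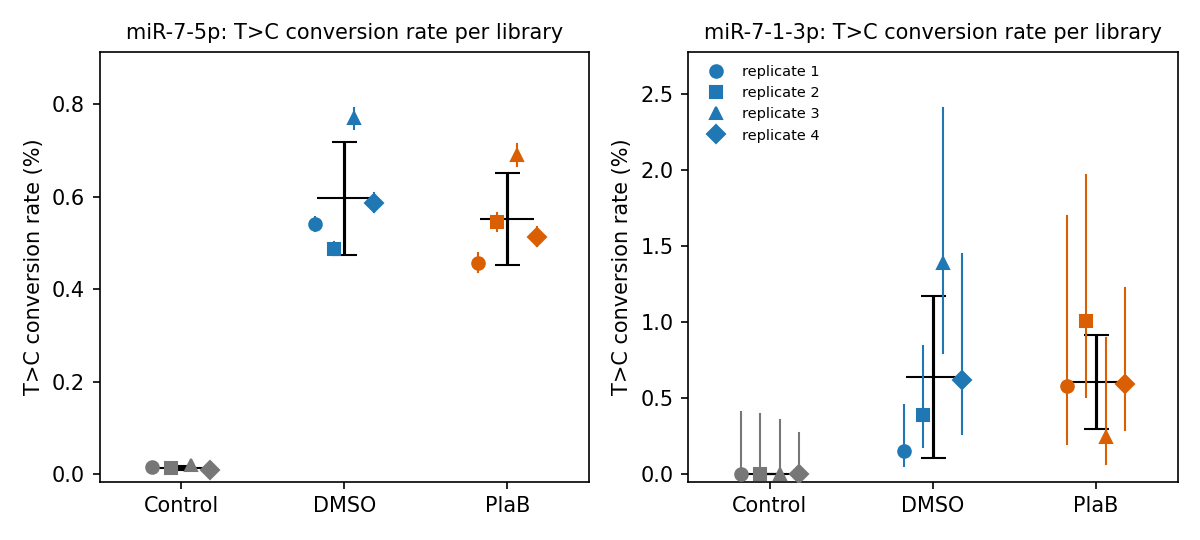
T>C conversion rate in percent (y axis) of miR-7-5p (left) and miR-7-1-3p (right) in each library by condition (x axis). Marker shape is the replicate number, thin coloured lines are 95% Wilson intervals of a library, and black bars are the mean ± SD of 4 libraries. The *DMSO* and *PlaB* libraries of miR-7-5p overlap between 0.458 and 0.770%, all far above *Control*, and the intervals of miR-7-1-3p are wide.

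The PlaB/DMSO ratio of a miRNA is the mean *PlaB* rate minus the mean *Control* rate, divided by the mean *DMSO* rate minus the mean *Control* rate. For miR-7-5p it was 0.923. Taken within experiments 1 to 4 it was 0.842, 1.12, 0.894 and 0.873, with a mean of 0.932 ± 0.127 (SD, n = 4). The ratio depended on *DMSO* replicate 3 for its side of 1, as it was 1.02 without that library. Without *DMSO* replicates 1 and 2, the combined libraries, it was 0.809.

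miR-7-1-3p also carried conversions in every library with 4SU, on far fewer reads. It had 0 conversions in each of the 4 *Control* libraries, 3, 6, 12 and 5 in *DMSO*, and 3, 8, 2 and 7 in *PlaB*. Its rates were 0.156, 0.389, 1.39 and 0.623% in *DMSO* and 0.581, 1.01, 0.247 and 0.595% in *PlaB*. The highest and lowest rates were both in *DMSO*, and the labelled conditions overlapped. Over the 4 libraries together there were 0 conversions at 4387 covered T positions in *Control*, which allows a rate of up to 0.0684%. The pooled rate in *DMSO* was 0.506% (95% Wilson interval 0.346 to 0.740%), 7.40 times the *Control* limit, and the lower end of its interval was 5.05 times that limit. In *PlaB* it was 0.606% (0.393 to 0.935%), 8.87 times the limit, with a lower end of 5.75 times. The ratio of *PlaB* to *DMSO* within experiments ranged from 0.178 to 3.73, so a change with PlaB was not detectable at this depth. These intervals and limits cover counting error only.

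The third question was how the labelled reads of miR-7-5p were made up. Reads with at least one T>C conversion, called converted reads here, made up 0.158, 0.142, 0.207 and 0.0956% of its reads in *Control*. They made up 4.37, 3.98, 6.14 and 4.80% in *DMSO*, and 3.79, 4.61, 5.59 and 4.27% in *PlaB*. The order of the libraries followed that of the T>C conversion rates in *DMSO*, with replicate 3 highest and replicate 2 lowest. There were 3397, 3210, 3500 and 2493 converted reads in the *DMSO* libraries, and 1448, 2472, 2473 and 1993 in the *PlaB* libraries. In every library with 4SU, the conversions of miR-7-5p outnumbered its converted reads. The number per converted read, a quotient of separate counts, was 1.32, 1.30, 1.32 and 1.29 in *DMSO* and 1.27, 1.25, 1.30 and 1.27 in *PlaB*. In *Control* it was 1.00, 1.00, 1.02 and 1.00. Both labelled conditions lay above *Control*, and their ranges overlapped. Within each of the 4 experiments the *PlaB* library had the smaller number. The *PlaB* minus *DMSO* differences were -0.0458, -0.0550, -0.0184 and -0.0160 conversions per converted read. How many other miRNAs share either pattern was not counted, so neither is shown to be particular to miR-7-5p. Of the 37 miRNAs with at least 500 converted reads in *DMSO*, miR-7-5p had the most conversions per converted read, 1.31 ± 0.0160 (SD, n = 4), against a median of 1.06 and 1.19 for the next, miR-181b-5p. miR-7-5p had between 10.5 and 10.7 covered T positions per read and, at 45.8% T, was at rank 6 of the Initial miRNA Dataset in T content; the part of base composition in its conversions per read was not tested. For miR-7-1-3p, with about 4 covered T positions per read, conversions equalled converted reads in every library with 4SU.

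miR-7-5p made up a larger part of the labelled pool with PlaB than without it, while the T>C conversion rate of the whole library was lower. Of all T>C conversions in a library, miR-7-5p held 2.10, 1.72, 2.41 and 1.64% in *Control*. It held 6.72, 6.60, 11.8 and 9.90% in *DMSO*, and 12.3, 13.4, 19.8 and 14.8% in *PlaB*. The 3 conditions did not overlap. Of the Initial miRNA Dataset, 14.0% had all *DMSO* libraries above all *Control* libraries in this share, and 2.10% had all *PlaB* libraries above all *DMSO* libraries. The mean share was 1.97 ± 0.359% for *Control*, 8.75 ± 2.53% for *DMSO* and 15.1 ± 3.31% for *PlaB* (SD, n = 4), while its share of all reads was between 2.00 and 2.81% in the 12 libraries. miR-7-5p was at rank 4 by share of conversions in *DMSO* and at rank 2 in *PlaB*. Relative to the T>C conversion rate of its whole library, which was 0.246 to 0.290% in *DMSO* and 0.135 to 0.171% in *PlaB*, the rate of miR-7-5p was 1.71 to 2.66 times as high in *DMSO* and 3.08 to 4.49 times as high in *PlaB*. In this measure, relative rates of miR-7-5p in *Control* were 0.401 to 0.619, and the *DMSO* libraries exceeded them, as for 16.8% of the dataset. The *PlaB* libraries in turn exceeded the *DMSO* libraries, as for 3.50% of the dataset.

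**Figure D3:**
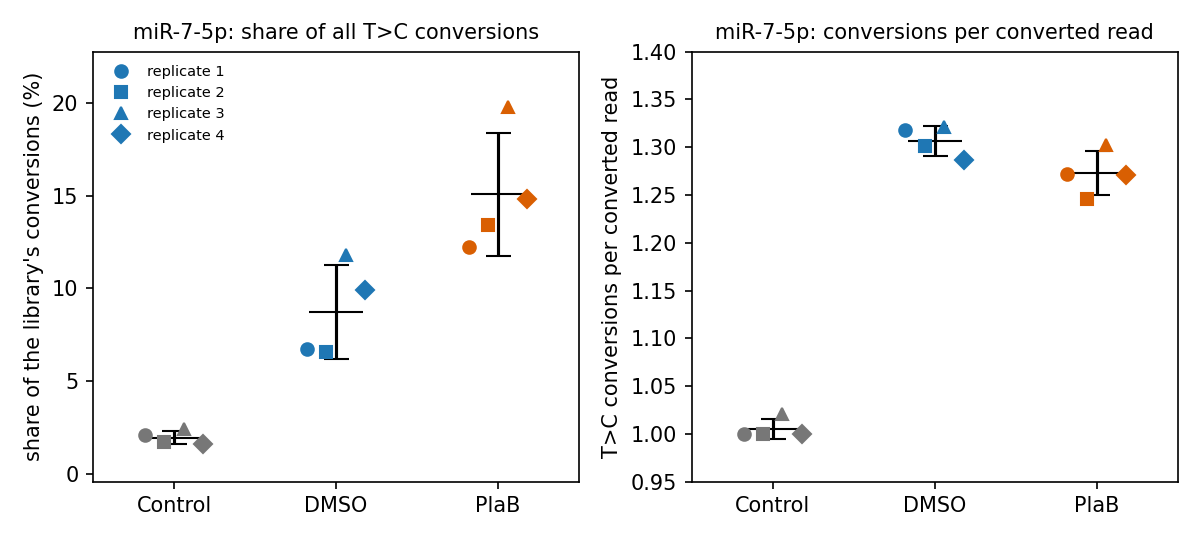
Share of all T>C conversions of a library held by miR-7-5p, in percent (left), and T>C conversions per converted read of miR-7-5p (right, axis starting at 0.95), in each library by condition. Marker shape is the replicate number and bars are the mean ± SD of 4 libraries. The share is 1.64 to 2.41% in *Control*, 6.60 to 11.8% in *DMSO* and 12.3 to 19.8% in *PlaB*. The ranges of conversions per converted read overlap between *DMSO* and *PlaB*, with *PlaB* the lower in each of the 4 experiments. How many other miRNAs show this order was not counted.

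The fourth question was where miR-7-5p stood among the other miRNAs. By mean *DMSO* rate miR-7-5p was at rank 22 of the Initial miRNA Dataset, so 21 miRNAs had higher rates. Its neighbours in that order were miR-502-3p at 0.600 ± 0.242% and miR-99b-5p at 0.578 ± 0.0356% (SD, n = 4), and both lay within 1 SD of it. Among the 25 miRNAs with the most reads it was first, ahead of miR-99b-5p and of miR-425-5p at 0.546 ± 0.0833%, from which it also differed by less than 1 SD. By mean *PlaB* rate miR-7-5p was at rank 9, and by mean *Control* rate at rank 83.

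In PlaB/DMSO ratio miR-7-5p was at rank 10 of the 118 miRNAs whose rate edgeR called higher in *DMSO* than in *Control* (82.5% of the dataset). The median ratio of these 118 was 0.318, and 67 of them were called lower in *PlaB* than in *DMSO*. The 9 miRNAs with a higher ratio were miR-450a-5p, let-7g-5p, miR-21-3p, miR-340-5p, miR-148a-5p, miR-218-5p, miR-25-5p, miR-374a-3p and miR-197-3p. They had between 12 and 457 conversions over the 4 *DMSO* libraries, where miR-7-5p had 16483. Next below miR-7-5p was miR-15b-5p at 0.917. Among the 25 miRNAs with the most reads miR-7-5p was at rank 3. Above it were miR-186-5p, whose rate was 0.0104% in *Control* and 0.0119% in *DMSO*, and miR-26a-5p, whose *DMSO* rate of 6.4e-04% was below its *Control* rate of 0.0045%, so that their ratios rest on almost no label. Below it were miR-21-5p at 0.784 and miR-25-3p at 0.760.

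**Figure D4:**
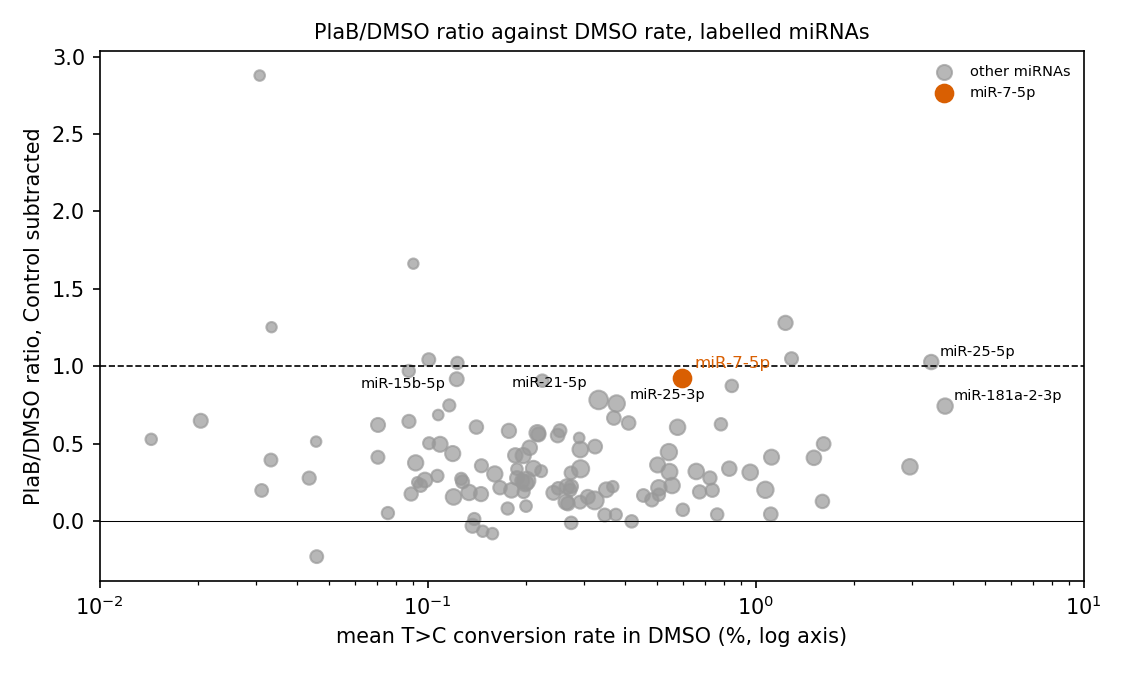
PlaB/DMSO ratio after subtraction of *Control* (y axis) against the mean T>C conversion rate in *DMSO* in percent (x axis, log scale) for the 118 labelled miRNAs. Each point is a miRNA, with a larger point for more conversions in *DMSO*, the dashed line marks a ratio of 1, and the names are miR-7-5p and the 5 miRNAs most like it. miR-7-5p lies at 0.596% and 0.923, above most points, whose median ratio is 0.318.

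The pattern of miR-7-5p over the 8 libraries with 4SU was compared with that of 79 other miRNAs with at least 100 conversions in *DMSO*. Each rate, less the *Control* mean, was divided by the mean *DMSO* rate of that miRNA, and likeness was the root mean square difference from miR-7-5p, for which 0 is identity and the median was 0.498. The most alike was miR-181a-2-3p, the less abundant strand of a miR-181a hairpin, with a difference of 0.198 and a ratio of 0.744. miR-15b-5p, of the miR-15 and miR-16 family, had a difference of 0.228. miR-25-3p, from a hairpin in an intron of MCM7, had a difference of 0.237, and its partner strand miR-25-5p one of 0.275 with a ratio of 1.03. miR-21-5p, the miRNA often raised in tumours, had a difference of 0.270. Their *DMSO* rates differed widely, from 0.123 ± 0.0329% for miR-15b-5p to 3.78 ± 0.388% for miR-181a-2-3p (SD, n = 4). The mean of the scaled *PlaB* rates is the PlaB/DMSO ratio itself, which was in view when miR-7-5p was chosen. A small difference therefore requires a similar ratio, and the ratios of these 5 are not a separate likeness. These 5 also share libraries and experiments with miR-7-5p, and the comparison is a description.

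Like miR-7-5p, several other mature miRNAs are made from more than one hairpin. Of 30 such miRNAs listed, 18 were in the Initial miRNA Dataset and 15 had a *DMSO* rate called above the *Control* rate; miR-26a-5p, let-7f-5p and miR-320b were not. Of the 15, 13 were called lower in *PlaB*, beside 67 of all 118, and 2, miR-196a-5p and miR-218-5p, were not. The median ratio of the 15 was 0.280, beside 0.318 over all 118. miR-218-5p was at 1.04, from 106 conversions in *DMSO*, and was the only one of the 15 with a ratio above that of miR-7-5p. The list does not hold every miRNA made from several hairpins, so others outside it may also lie above miR-7-5p. miR-92a-3p, of the miR-17~92a cluster and the most abundant of the list, was at 0.263. miR-16-5p was at 0.339 and miR-103a-3p, from introns of the PANK genes, at 0.158.

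Last, miR-671 was examined as a partner of miR-7 that was not among the members. The strand that directs cleavage of CDR1as is miR-671-5p, and miR-671-3p is its partner strand. miR-671-5p was at 52.1 to 102 CPM over the 12 libraries and was not called in either comparison (adjusted p of 0.797 and 0.940 in the edgeR test over 537 miRNAs). miR-671-3p was at 88.1, 74.4, 104 and 94.6 CPM in *Control*, 64.7, 45.2, 45.8 and 46.2 CPM in *DMSO*, and 36.1, 43.4, 43.3 and 58.1 CPM in *PlaB*. Every *DMSO* library lay below every *Control* library, whereas *PlaB* and *DMSO* overlapped. miR-671-3p was lower in *DMSO* than in *Control* by a log2 fold change of -0.83 (SE 0.20, edgeR adjusted p = 0.019), where 5.96% of the 537 miRNAs were called (32, and 60 with the replicate number as a block). It lost this call in 7 of 19 alternative analyses, over which the edgeR and DESeq2 adjusted p ranged from 6.8e-04 to 0.095; 5 of these left out 1 library each, *Control* replicates 3 or 4 or *DMSO* replicates 2, 3 or 4. Between *PlaB* and *DMSO* the log2 fold change of miR-671-3p was -0.16 (SE 0.20, edgeR adjusted p = 0.976), where 0.372% of the 537 miRNAs were called (2, and 6 with the block).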

How the data were processed

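Small RNA was sequenced from 12 libraries of Huh7 cells, 4 each of *Control*, *DMSO* and *PlaB*. After trimming, the authors aligned reads to GRCh38 and used SLAM-DUNK to count them on mature miRBase coordinates, masking SNPs and keeping multi-mapping reads, so reads of identical copies are counted under one name. The deposited tables give counts (reads, converted reads, conversions, covered T positions), CPM and the conversion rate as a fraction, printed here as percent. CPM and rates were checked against the counts.

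Members and lists were chosen with earlier results of these data known. Groups came from the sample labels. Reads were fitted in R 4.3.3 with edgeR 4.0.16 (TMM, filterByExpr, 3 conditions, quasi-likelihood, Benjamini-Hochberg over 537 miRNAs, threshold 0.05). Conversions were fitted likewise with log covered T positions as an offset, over the 143 miRNAs marked by the study. DESeq2 1.42.0 was an alternative. Scripts were tested on simulated data with 2-fold changes. The test of reads recovered 54.5% of the changed miRNAs with 2 false calls, and that of conversions 22.5% with 0 false calls. Many changes of this size can therefore go uncalled. The named miRNAs were the members, miRNAs of the miR-7 loci and miR-671, the 5 most alike, neighbours in rate and ratio, and listed multi-locus miRNAs; the 9 with a higher ratio, miR-181b-5p as next in conversions per read, miR-502-3p and marker miRNAs were named in addition. Same-numbered libraries share an experiment, and their deviations from the mean of their condition correlated (158 miRNAs, median r 0.557, lowest 0.208). For different numbers the median r was -0.203, a negative value that follows from subtracting that mean and is not separate evidence of pairing.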

Additional observations from a re-analysis of the deposited data

Results flagged for a closer look

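Among 20 groups of 4 libraries examined for a library far from the others, 1 was found, and chance gives about 1 in 20. In *Control* replicate 3, miR-7-5p had 1.02 conversions per converted read (95 conversions in 93 reads), while the other 3 *Control* libraries had exactly 1. With 3 equal values, any different value in the remaining library would have been flagged, so the rate of about 1 in 20 does not apply here.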

How the results depend on the processing

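Of 192 alternative values of 11 main results, 161 stayed within the spread or, for counts of called miRNAs, within a set fold of the main count. The PlaB/DMSO ratio of miR-7-5p was 0.809 to 1.02 over 18 alternatives, 17 of them below 1, and the log2 fold changes of reads stayed between -0.07 and 0.21 for miR-7-5p and between -0.37 and 0.18 for miR-7-1-3p. With the share of converted reads in place of the rate, the *DMSO* mean was 4.82%, a different quantity.

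miRNAs with changed reads between *DMSO* and *Control* numbered 32 (5 higher, 27 lower), 60 with the replicate block, 6 over the Initial miRNA Dataset alone, 17 without *DMSO* replicates 1 and 2, and 15 to 35 with 1 library left out (15 without *DMSO* replicate 3, 19 without 4, 20 without 2, 21 without *Control* replicate 3). Between *PlaB* and *DMSO* they numbered 2 (30 at an unadjusted p under 0.05), 6 with DESeq2, 6 with the replicate block, 5 without the filter, 1 over that dataset, 1 without normalization factors, 0 with edgeR and RLE factors, 0 with the 8 libraries alone, 0 without *DMSO* replicates 1 and 2, and 0 to 1 with any 1 library left out. Higher T>C rates in *DMSO* than *Control* numbered 118, and 55 with fewer miRNAs tested (above 1000 CPM). Lower rates in *PlaB* than *DMSO* numbered 69, 40 above 1000 CPM and 44 without *DMSO* replicates 1 and 2. With the replicate block the higher rates numbered 114 and the lower rates 65, the mean ratio of miR-7-5p was 0.932, and no call of miR-671-3p or miR-671-5p changed. The causes were not tested. Depth limits miR-7-1-3p, with 26 conversions in *DMSO* and 20 in *PlaB*.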

Other observations

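miR-7-1-3p is not in the Initial miRNA Dataset, so the pair miR-7-5p and miR-7-1-3p was not among those compared here. Pooled over the *DMSO* libraries, the rate of miR-7-1-3p was 0.506% from 26 conversions (Wilson interval 0.346 to 0.740%). That of miR-7-5p was 0.582% (0.574 to 0.591%), within the interval of miR-7-1-3p. These intervals cover counting error only. There were 17 other hairpins with both strands among the 118 labelled miRNAs. Their comparison was chosen after values of some of them were seen. In 10 of the 17 both strands lay above the median PlaB/DMSO ratio of 0.318. The strand with fewer reads had the higher *DMSO* rate in 11 of 17 hairpins, the higher ratio in 13 and both in 8. For instance, miR-21-3p had a ratio of 1.28 and miR-21-5p one of 0.784, with *DMSO* rates of 1.23 ± 0.316% and 0.332 ± 0.0552% (SD, n = 4). In the other direction, miR-30e-3p, the strand with fewer reads, had a ratio of 0.414 and miR-30e-5p one of 0.649. The differences between strands were not tested.

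miR-455-3p had fewer conversions than converted reads in *DMSO*, the only one of the 37 miRNAs with at least 500 converted reads where this was so. Some of its converted reads thus held no counted conversion. Conversions per converted read are therefore a ratio of separate counts, not a count made within single reads.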
